A study of Homo sapiens with 24 samples.

Results

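The microRNA host genes are 59 of the 60641 gene symbols that all 24 libraries list, chosen by name alone as every symbol made of MIR, a number or a let-7 designation, and HG. Counts were found for 54 of them in at least 1 library, and 5 were at 0 in every library (MIR217HG, MIR205HG, MIR4290HG, MIR3976HG and MIR670HG). A mean of at least 1 CPM (counts scaled to the library total) over the 24 libraries was reached by 27 hosts, and of at least 10 CPM by 12. The GENCODE annotation of GRCh38 holds 58 of the 59, all as lncRNA genes.

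A host gene is transcribed as a long RNA that carries a microRNA hairpin in an intron or an exon. The nuclear enzyme Drosha with its partner DGCR8 cuts the hairpin out, Dicer trims it to a short duplex, and an Argonaute protein uses the mature strand to find mRNAs, mainly through the seed near its 5′ end. The libraries measured long RNA after rRNA removal, so host values here come from reads of long RNA, not of mature microRNAs. How far a value is the level of the host transcript alone is limited by overlapping genes and hairpin rows, described below.

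The cells were A549, a human lung adenocarcinoma line, and HCT116, a human colorectal carcinoma line, and the study deleted DNA-binding domains (DBDs) of lncRNAs with CRISPR/Cas9 to see which genes respond. There were 8 groups of 3 libraries: A549 wild type (WT B), A549 MSTRG.2513.6 KO, A549 MSTRG.4401.1 KO, HCT116 wild type in a WT A and a WT B set, and HCT116 KOs of MSTRG.34636.7, MSTRG.2513.6 and MSTRG.4401.1. WT A and MSTRG.34636.7 KO libraries are numbered 1A to 3A, and all others S8 to S25. The labels name no further treatment and do not say whether a KO line is a clone or a pool, or whether the 3 libraries of a group came from separate cultures, so p-values measure only the spread between libraries. The deleted transcripts have no symbol in the count tables, and the deletions could not be checked on the counts. Library totals ran from 25799359 to 102261808 counts, so that 3 counts corresponded to between 0.116 and 0.0293 CPM.

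Labels and markers disagreed in 2 libraries. The summed CPM of 5 A549 markers (AKR1B10, AKR1C1, ALDH1A1, ALDH3A1 and VIM) was 10369 in S8 and 10461 in S9, both labelled HCT116 MSTRG.2513.6 KO, against 5.44 to 13.8 in the 13 other libraries labelled HCT116 and 7177 to 11356 in the 9 labelled A549. The 6 HCT116 markers (CDX2, CDH17, EPCAM, CDH1, VIL1 and CDKN2A) summed to 33.4 and 35.8 CPM in S8 and S9, to 29.0 to 169 CPM in the 9 libraries labelled A549 and to 241 to 541 CPM in the 13 others. Of these 6, CDX2, EPCAM and CDKN2A separated the lines, with CDX2 at 0.406 to 0.636 CPM in S8 and S9 against 13.9 to 23.6 CPM in the 13 others. CDH17 went the other way, with 5.21 to 16.3 CPM in libraries labelled A549, 5.21 to 7.40 CPM in S8 and S9 and 0.116 to 1.76 CPM in the 13 others, while CDH1 and VIL1 overlapped between the lines. Results of that group are given with and without these libraries.

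Among the 27 hosts with a mean of at least 1 CPM, 23 have mature microRNAs in the RefSeq table (GRCh38.p14), 75 sequences with 61 different seeds. Counted on these 75 sequences alone, only 4 of the seeds occur in more than 1 of the hosts. The first set is shown because 5 hosts carry the let-7 seed, among them MIR4500HG, whose name does not show it, and because MIR100HG, MIR99AHG, MIR4500HG and MIRLET7A1HG are among the hosts called in the A549 KOs. In all sequences below the seed, bases 2 to 8, is in capitals.
hsa-let-7a-5p: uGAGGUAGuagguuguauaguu
hsa-let-7b-5p: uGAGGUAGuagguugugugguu
hsa-let-7c-5p: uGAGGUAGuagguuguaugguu
hsa-let-7d-5p: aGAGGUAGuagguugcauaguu
hsa-let-7f-5p: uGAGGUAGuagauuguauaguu
hsa-miR-4500: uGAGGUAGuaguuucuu

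The let-7a sequence is carried by MIR100HG, MIRLET7A1HG and MIRLET7BHG, let-7b by MIRLET7BHG, let-7c by MIR99AHG, and let-7d and let-7f by MIRLET7A1HG. Mature miR-4500 lies at chr13:87618671-87618687 on the minus strand, within an intron of MIR4500HG. A second seed joins the same MIR100HG and MIR99AHG. MIR100HG also holds miR-125b, from the hairpin MIR125B1. GENCODE places a further hairpin gene, MIR125B2, within MIR99AHG, but its mature sequences are not among those used here.
hsa-miR-100-5p: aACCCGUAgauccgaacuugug
hsa-miR-99a-5p: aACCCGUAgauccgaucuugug
hsa-miR-125b-5p: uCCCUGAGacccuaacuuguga

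MIR100HG spans chr11:122028325-122556721 on the minus strand, with mature miR-100-5p at chr11:122152275-122152296 and miR-125b-5p at chr11:122099809-122099830, both intronic. MIR99AHG spans chr21:15928296-16646364 on the plus strand. The next microRNAs are shown because the count tables also list their hairpin genes as rows of their own, with counts that matter for the host rows around them.
hsa-miR-222-3p: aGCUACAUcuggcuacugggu
hsa-miR-221-3p: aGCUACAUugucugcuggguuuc
hsa-miR-31-5p: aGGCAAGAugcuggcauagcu
hsa-miR-181a-5p: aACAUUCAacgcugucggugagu
hsa-miR-365a-3p: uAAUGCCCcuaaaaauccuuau
hsa-miR-4453: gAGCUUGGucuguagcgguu

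The microRNAs miR-221 and miR-222 share a seed and are both hosted by MIR222HG (chrX:45745210-45770274, minus strand). MIR31HG (chr9:21380073-21559891, minus) holds miR-31 in an intron, MIR181A1HG (chr1:198777861-198937471, minus) holds miR-181a, MIR193BHG (chr16:14301389-14331067, plus) holds miR-365a, and MIR4453HG (chr4:152536264-152539263, plus) holds miR-4453 in its exon.

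Compared per kilobase of annotated exon, on the host rows alone, the host RNAs differed in order between the cell lines. In A549 WT B the highest level was that of MIR1915HG with 17.01 ± 0.701 CPM per kb (SD, n = 3), followed by MIR503HG with 10.1 ± 0.380 and MIR22HG with 7.996 ± 0.176, and the ranges of these 3 hosts did not overlap. MIR222HG came next with 4.99 ± 2.10, and its range of 2.58 to 6.42 overlapped that of MIR29B2CHG, at 3.50 to 4.33. In HCT116 WT B the order began with MIR222HG at 17.4 ± 0.686 CPM per kb and MIR378D2HG at 8.74 ± 1.41. Next came MIR100HG at 4.25 ± 0.130 and MIR200CHG at 4.07 ± 0.373, with overlapping ranges. MIR1915HG, first in A549, was 17th in HCT116 WT B with 1.07 ± 0.0398 CPM per kb. With the rows of the microRNAs inside each host added, MIR222HG came first in both lines, with 43.9 ± 7.32 CPM per kb in A549 WT B, ahead of MIR1915HG with 17.3 ± 0.748, and with 135 ± 7.60 CPM per kb in HCT116 WT B. These sums were still divided by the annotated exon length of the host alone. The MIR222 hairpin lies in an intron, outside that length, so the sums are not levels per kb of the sequence counted.

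**Figure D1:**
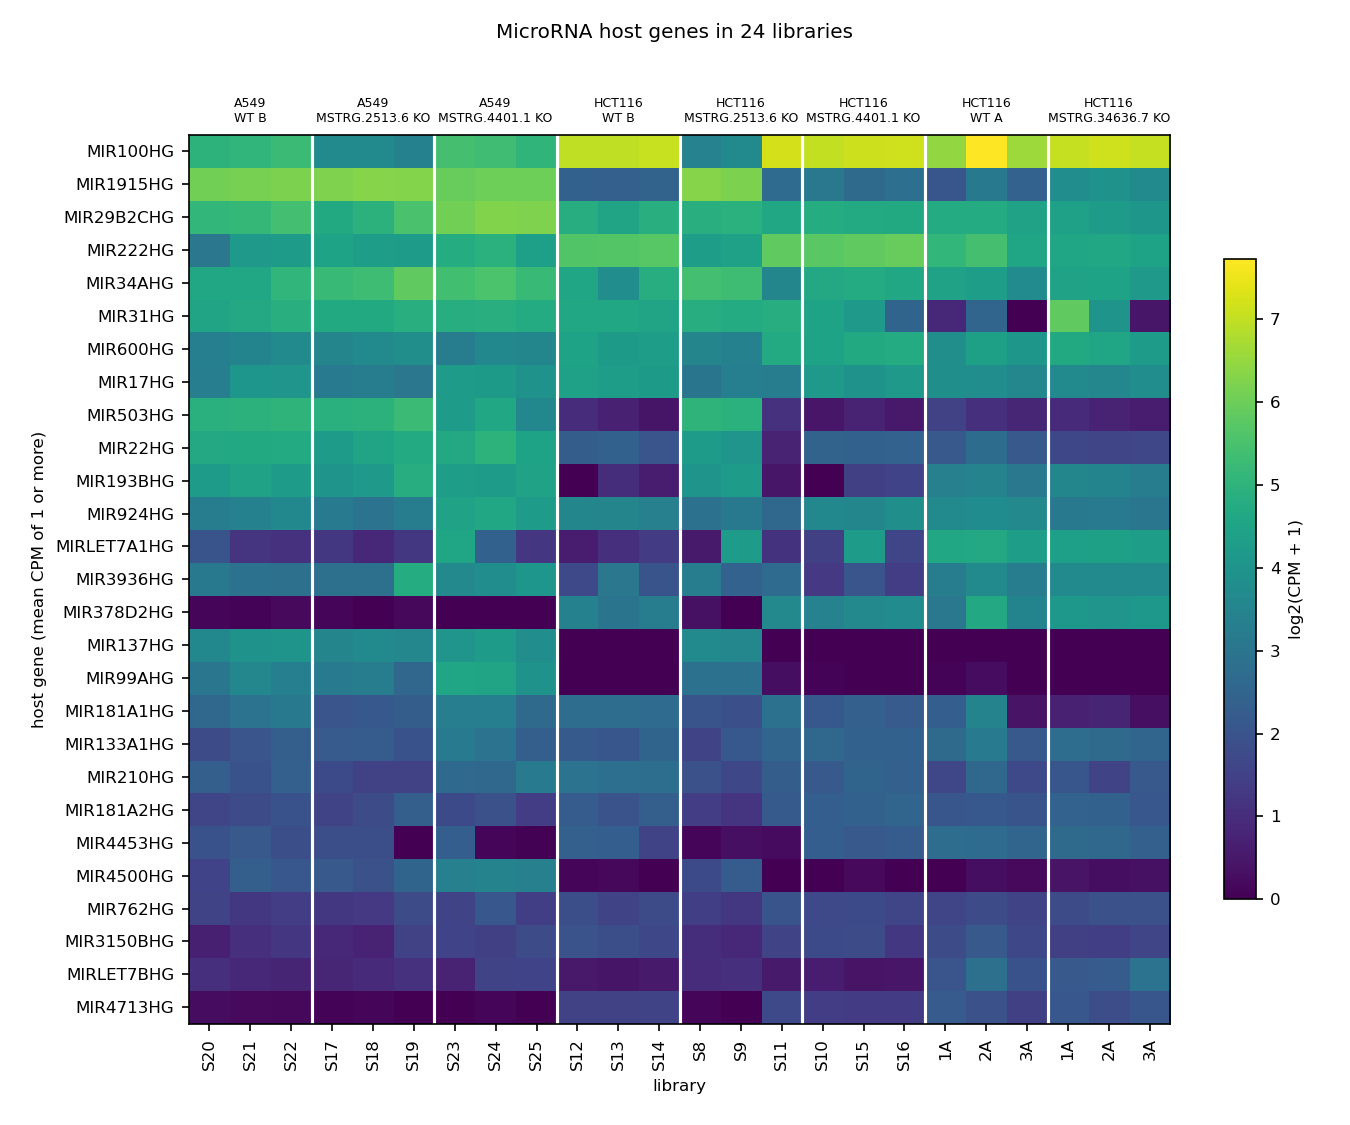
Levels of the 27 host genes with a mean of at least 1 CPM, as log2(CPM + 1) by color, with 1 column per library and white lines between the 8 groups. Libraries S8 and S9, labelled HCT116, show the high MIR1915HG, MIR503HG, MIR137HG and MIR99AHG of the A549 columns.

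The wild-type cell lines differed most. A host was called changed at an adjusted p under 0.1 and an absolute log2 fold change over 1. The adjusted p is that of the quasi-likelihood test of edgeR after Benjamini-Hochberg adjustment over all genes tested. Between A549 WT B and HCT116 WT B 19 of 36 hosts tested were called, 9 higher and 10 lower in A549, beside 35.7% of all genes (17.2% higher and 18.5% lower). Hosts tested had a median log2 fold change of -0.10, and all genes -0.02. In bulk libraries fewer expressing cells and less RNA per cell cannot be told apart.

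Several hosts were present in A549 and at 0 counts in HCT116 WT B. MIR137HG, which carries miR-137, a microRNA of neurons, and shares exon sequence with DPYD on the same strand, had 11.2, 14.2 and 15.1 CPM in the A549 WT B libraries and no count in the 3 HCT116 libraries, at least 263-fold higher when each HCT116 library is set to 3 counts. MIR99AHG had 7.24, 10.8 and 9.09 CPM in A549 and none in HCT116 WT B, at least 176-fold higher. Over the 13 libraries labelled HCT116 other than S8 and S9, MIR137HG was at 0 in all 13, and MIR99AHG was at 0 in 8 and reached at most 0.220 CPM. MIR4458HG, at least 43.5-fold higher, had 2.02 to 2.36 CPM in A549 WT B.

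Other hosts were expressed in both lines at different levels. MIR1915HG stood at 66.3, 68.8 and 71.9 CPM in wild-type A549 (WT B) and at 4.29, 4.19 and 4.51 CPM in HCT116 WT B, a log2 fold change of 4.25 ± 0.0681 (SE, edgeR adjusted p = 3.74e-08). MIR503HG holds the hairpin of miR-503, of the miR-424 and miR-503 cluster known for restraining the cell cycle. This host had 29.2 to 31.4 CPM in A549 and 0.366 to 0.973 CPM in HCT116, a log2 fold change of 5.81 ± 0.304. MIR22HG, a stress-responsive host, was higher in A549 by 2.99 ± 0.147 on the log2 scale, and MIR4500HG by 5.71 ± 0.668, with 1.94 to 4.07 CPM against 0 to 0.125 CPM. MIRLET7BHG was higher by 1.34 ± 0.311, at levels of 0.746 to 1.09 against 0.358 to 0.466 CPM. MIR193BHG, host of miR-193b and miR-365a, had 17.95 to 20.9 CPM in A549 and 0 to 0.997 CPM in HCT116, a log2 fold change of 5.41 ± 0.805. None of these ranges overlapped between the lines. The same was so for 26 of the 36 hosts tested and for 66.0% of all genes tested.

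Lower in A549 were MIR100HG, MIR222HG and MIR200CHG among others. MIR100HG had 30.8, 33.1 and 37.2 CPM in wild-type A549 (WT B) and 127, 125 and 133 CPM in HCT116 WT B, a log2 fold change of -1.67 ± 0.0556 (edgeR adjusted p = 4.43e-07). MIR222HG had 7.39, 17.1 and 18.4 CPM against 48.1, 49.3 and 51.9 CPM, -1.56 ± 0.274 on the log2 scale. MIR200CHG hosts miR-200c and miR-141, microRNAs that keep the mesenchymal regulators ZEB1 and ZEB2 low in epithelial cells. It had 3, 4 and 0 counts in the A549 WT B libraries and 81 to 102 counts in HCT116 WT B, and the opposite held for ZEB1, with 28.8 ± 3.04 CPM in A549 and 3.97 ± 0.356 CPM in HCT116 (SD, n = 3), and for ZEB2, with 18.6 ± 1.73 and 0.0687 ± 0.0193 CPM.

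The remaining hosts lower in A549 were at low levels. MIR155HG, host of the immune microRNA miR-155, had 0.365 ± 0.228 CPM in A549 and 1.25 ± 0.0704 CPM in HCT116 (SD, n = 3). MIR3659HG had no count in A549 WT B and 0.632 to 0.954 CPM in HCT116, at least 13.2-fold lower. MIR2052HG, MIR302CHG, MIR3150BHG and MIR4713HG had mean levels of 0.277, 0.262, 1.00 and 0.153 CPM in A549 against 2.07, 0.693, 2.58 and 1.88 CPM in HCT116. MIR302CHG is named for the pluripotency cluster miR-302, and its call (log2 fold change -1.15) did not hold in 6 of 11 alternatives, those with the nested microRNA rows added (-0.93) or without S20, S22, S12, S13 or S14 (-1.26 to -0.76). The call of MIR3150BHG was lost without S20 (-0.89). MIR378D2HG had 3 to 6 counts in the A549 wild-type libraries and 440 to 513 counts in HCT116 WT B, and lies on the strand opposite to PDP1, the gene of a pyruvate dehydrogenase phosphatase. PDP1 itself stood at 16.4 ± 1.76 CPM in wild-type A549 against 1282 ± 2.74 CPM in wild-type HCT116, both of WT B. The annotation shows no exon overlap of MIR378D2HG with PDP1. Whether PDP1 reads outside its annotated exons entered the MIR378D2HG row was not tested, and the use of strand in the counting is not given in the sources used here.

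**Figure D2:**
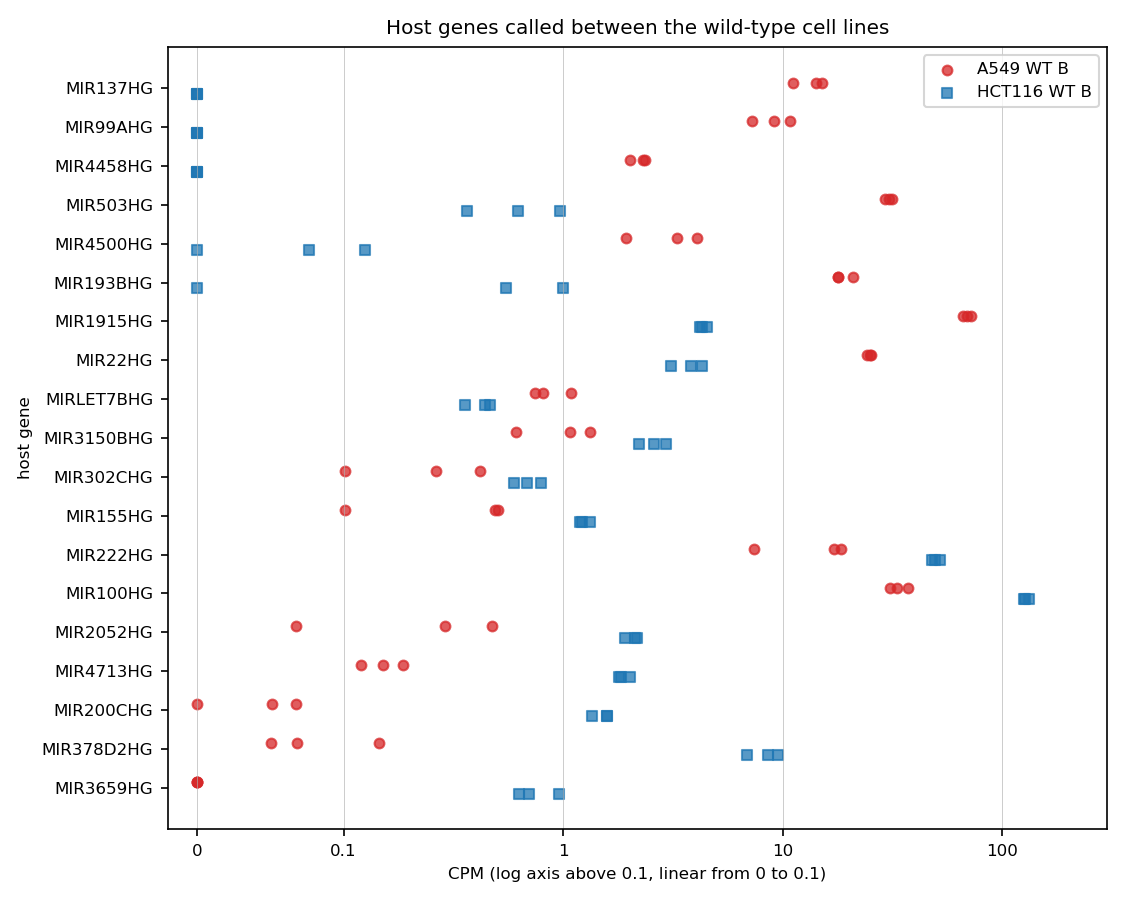
CPM of the 19 host genes called between the wild-type lines in each A549 WT B library (circles) and HCT116 WT B library (squares), ordered by log2 fold change, on an axis that is logarithmic above 0.1 and linear below. For each host the 3 circles and 3 squares do not overlap in range, from MIR137HG at the top to MIR3659HG at the bottom. No overlap was also found for 66.0% of all genes tested between these groups.

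Genes that act on microRNAs were compared by lists. Calls in these lists stand beside the 35.7% of all genes called between A549 WT B and HCT116 WT B (17.2% higher and 18.5% lower). Of 10 processing genes (Drosha, DGCR8, Dicer and their partners) all 10 were tested and 0 were called between the lines, with a median log2 fold change of 0.07. Of 10 Argonaute and silencing-complex genes, AGO2, AGO3 and TNRC6C were lower in A549, by -1.80 ± 0.528, -1.24 ± 0.0617 and -2.23 ± 0.0722 on the log2 scale. LIN28B, the RNA-binding protein that blocks the maturation of let-7, was higher in A549 with 9.98 ± 1.18 against 0.243 ± 0.114 CPM, while its paralog LIN28A was lower with 0.246 ± 0.102 against 0.796 ± 0.186 CPM. Among 20 protein-coding genes with an intronic microRNA, COPZ2 and SLIT3 were higher and SLIT2 was lower in A549. Of 11 regulators of host genes HIF1A, EPAS1, ZEB1 and ZEB2 were higher and MYC was lower.

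In A549 cells with MSTRG.2513.6 KO, the host that changed was MIR100HG. It had 12.04, 11.9 and 9.48 CPM in the KO libraries and 30.8, 33.1 and 37.2 CPM in WT B, a log2 fold change of -1.59 ± 0.147 (edgeR adjusted p = 0.00157). Every KO library lay below every WT B library. Between these groups 8 of 30 hosts tested and 22.9% of all genes tested had no overlap. MIR100HG was the 1 host called of 30 tested, beside 2.92% of all genes called (1.13% higher and 1.79% lower). The median log2 fold change was 0.05 over the hosts tested and -0.03 over all genes. The call held in all 11 alternatives, with log2 fold changes from -1.64 to -1.46.

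BLID, a short gene inside MIR100HG on the same strand, had 0.891 ± 0.327 CPM in the KO and 2.99 ± 1.03 CPM in WT B. The other hosts of its list, those of the let-7 and miR-100 family, were not called: MIR99AHG was at -0.34 ± 0.253, MIRLET7A1HG at -0.64 ± 0.445 and MIRLET7BHG at 0.09 ± 0.299 on the log2 scale. LIN28B fell as well, from 8.63, 10.6 and 10.7 CPM in WT B to 5.42, 5.15 and 3.19 CPM in the KO (log2 fold change -1.11 ± 0.236, edgeR adjusted p = 0.0471). Of 2 further hosts with an adjusted p under 0.1 and a smaller fold change, MIR181A1HG stood at -0.90 ± 0.189 and MIR34AHG, host of the p53-induced miR-34a, at 0.73 ± 0.177 on the log2 scale. No gene of the processing, Argonaute, intronic or regulator lists was called. DICER1, the gene of Dicer, had 68.2 ± 6.62 CPM in the KO and 106 ± 9.76 CPM in WT B, a log2 fold change of -0.63 ± 0.113 (edgeR adjusted p = 0.0256) that is under the fold-change threshold.

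In A549 cells with MSTRG.4401.1 KO, 5 of 31 hosts tested were called and all 5 were higher, beside 15.4% of all genes tested called (11.1% higher and 4.32% lower). MIR4500HG, MIR99AHG and MIRLET7A1HG carry let-7 seeds, and the others called were MIR924HG and MIR663AHG. MIR100HG and MIRLET7BHG, which also carry the let-7 seed, were tested and not called. Median log2 fold changes were 0.54 over the hosts tested and 0.12 over all genes. The KO libraries were shallower, with totals of 25799359 to 33205007 counts against 41563496 to 59466012 in WT B, and mitochondrial genes took 6.10% ± 2.30 of their counts against 2.11% ± 0.221 (SD, n = 3), and the part of these differences in the result was not tested.

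MIR4500HG gave the clearest values, 9.31, 10.0002 and 9.38 CPM in the KO and 1.94, 4.07 and 3.30 CPM in WT B. The log2 fold change was 1.55 ± 0.256 (edgeR adjusted p = 0.00354), the groups did not overlap, and the call held in all 11 alternatives, from 1.32 to 1.78. Between these groups 12 of 31 hosts tested and 48.0% of all genes tested had no overlap. MIR4500HG is the host of the let-7 seed microRNA miR-4500 and spans chr13:87427214-87674235 on the minus strand, with an exon opposite to an exon of SLITRK5.

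MIR99AHG had 22.1, 21.9 and 14.3 CPM against 7.24, 10.8 and 9.09 CPM, a log2 fold change of 1.02 ± 0.202 (edgeR adjusted p = 0.00708). MIR924HG had 20.7, 23.7 and 17.95 CPM against 8.49, 9.48 and 11.1 CPM, a log2 fold change of 1.03 ± 0.147 (edgeR adjusted p = 0.00213). Neither host's groups overlapped, and both stood close to the fold-change threshold. By DESeq2, without a filter on low counts, and without S20 or S24 neither was called, MIR99AHG was also not called without S22 or S23, and MIR924HG not without S21, with log2 fold changes from 0.89 to 0.98 in these fits.

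The other calls rested on few libraries. MIRLET7A1HG had 22.8, 4.30 and 1.33 CPM in the KO libraries S23, S24 and S25 and 2.99, 1.29 and 1.13 CPM in WT B, so the groups overlapped, and the fitted log2 fold change of 2.25 ± 0.875 (edgeR adjusted p = 0.0776) was no longer called without S23 (0.48), without S21 or S22, by DESeq2 or without a filter on low counts. MIR663AHG had 3.34, 1.12 and 0.877 CPM against 0.696, 0.0841 and 0.144 CPM, a log2 fold change of 2.37 ± 0.804 (edgeR adjusted p = 0.0512). It too was not called without S21, S22 or S23.

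Beyond the 5 calls, 8 hosts had an adjusted p under 0.1 with smaller fold changes. Highest in level among them was MIR29B2CHG, host of miR-29b and miR-29c, with 66.8, 75.1 and 73.7 CPM in the KO against 33.7, 34.2 and 41.7 CPM in WT B, a log2 fold change of 0.90 ± 0.111. MIR503HG went the other way, with 18.2, 23.2 and 11.1 CPM against 29.2, 30.5 and 31.4 CPM and -0.88 ± 0.218 on the log2 scale. Upper-quartile normalization, which moved the median of all genes from 0.12 to 0.28, called 9 hosts, all higher. The share of all genes called with it is not given here, so this rise cannot be told apart from one over all genes.

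LIN28B did not pass the test in this KO, with 12.97 ± 2.35 CPM against 9.98 ± 1.18 CPM. Of the protein-coding genes with an intronic microRNA, COPZ2 (host of miR-152) was lower by -1.91 ± 0.344 and SLIT3 (host of miR-218-2) by -1.12 ± 0.112 on the log2 scale. MYCN, a transcription factor of the MYC family, had no count in WT B and 0.750 ± 0.232 CPM in the KO, at least 12.96-fold higher. None of the processing or Argonaute genes was called.

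**Figure D3:**
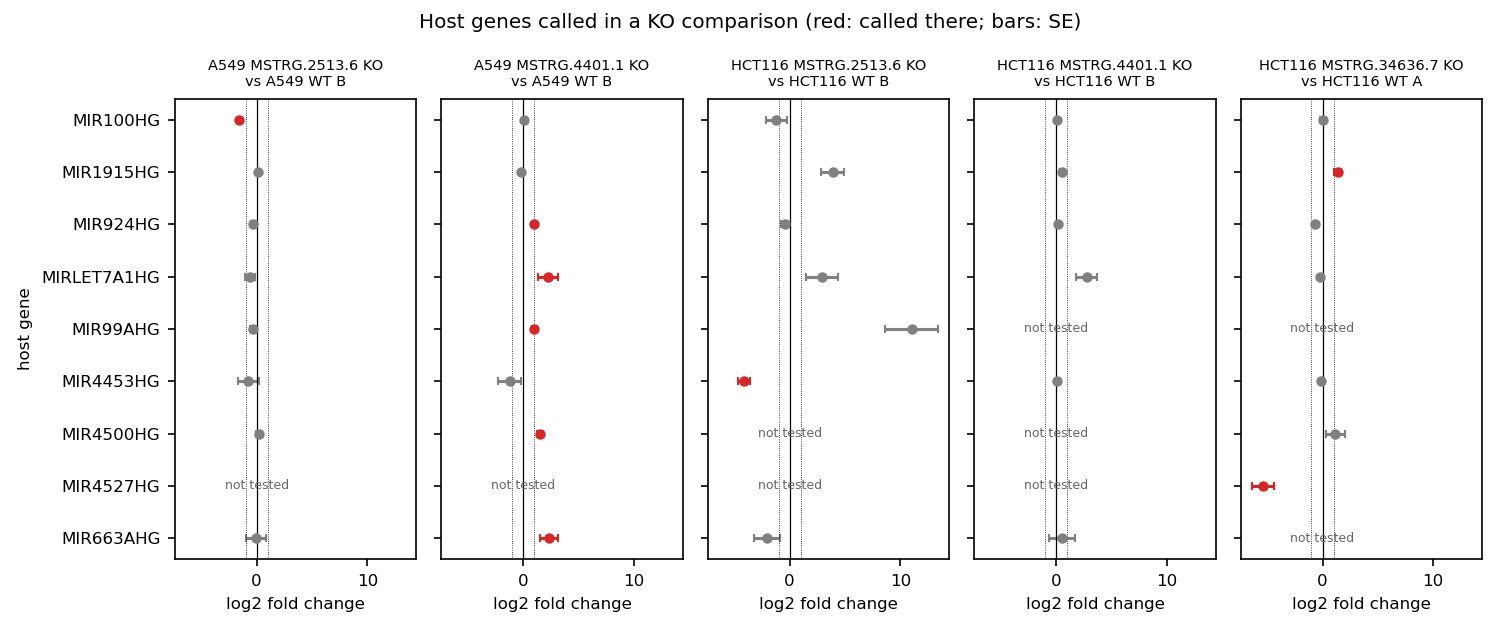
Log2 fold change with its SE for the 9 host genes called in a KO comparison, 1 panel per comparison, with red points where the host was called and dotted lines at a log2 fold change of 1 in either direction. The panel of HCT116 MSTRG.2513.6 KO includes S8 and S9, and MIR100HG is red in A549 MSTRG.2513.6 KO.

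The KO of the same transcript in HCT116 gave no host call: of 33 hosts tested in HCT116 MSTRG.4401.1 KO, 0 were called by edgeR's quasi-likelihood test, beside 2.62% of all genes (0.996% higher and 1.62% lower). DESeq2 called 1 host, MIR3936HG. With an adjusted p under 0.1 and smaller fold changes stood MIR1915HG at 0.54 ± 0.16, MIR181A1HG at -0.62 ± 0.13 and MIR210HG at -0.61 ± 0.146 on the log2 scale. MIR99AHG and MIR4500HG, higher in the A549 KO, had at most 0.0581 and 0.141 CPM in HCT116 MSTRG.4401.1 KO and did not pass the filter on low counts. MIRLET7A1HG was at 18.1 CPM in S15 but at 1.78 and 2.09 CPM in S10 and S16, and was not called.

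A test of the difference itself compared the MSTRG.4401.1 KO effect between A549 and HCT116 over 12 libraries. It called 5 of 36 hosts, 3 with a higher effect in A549 and 2 with a lower one, beside 11.4% of all genes (7.43% and 3.98%). For MIR210HG, the host of the hypoxia-induced miR-210, the A549 libraries had 5.18, 5.08 and 8.04 CPM in the KO and 4.11, 2.86 and 4.11 CPM in WT B, and the HCT116 libraries had 3.43, 4.62 and 4.19 CPM in the KO and 6.64, 6.00 and 5.86 CPM in WT B. The effects differed by 1.23 ± 0.331 on the log2 scale (edgeR adjusted p = 0.0216). For MIR3936HG the difference was 1.91 ± 0.584 (edgeR adjusted p = 0.0383), with means of 13.3 against 6.77 CPM in A549 and 2.07 against 4.21 CPM in HCT116. MIR3936HG has exons opposite to exons of the carnitine transporter genes SLC22A4 and SLC22A5. For MIR3150BHG it was 1.32 ± 0.425. MIR210HG and MIR3150BHG were not called without S25, and MIR3150BHG not without S12. Of the regulators, EPAS1 had a higher effect in A549, and ZEB2 and E2F3 a lower one, by 1.10 ± 0.141, -1.10 ± 0.309 and -1.10 ± 0.176 on the log2 scale. MIR378D2HG and MIR4713HG were also called, but had at most 6 and 11 counts in any A549 library of these groups, so no fold is given for them here.

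HCT116 MSTRG.2513.6 KO is the group with the libraries S8 and S9, and the hosts followed the markers. MIR137HG was at 11.8 and 10.98 CPM in S8 and S9 and at 0 in S11, MIR1915HG at 78.6 and 72.9 CPM against 5.503 CPM, and MIR503HG at 31.7 and 29.3 CPM against 1.16 CPM. MIR100HG was at 9.70 and 11.6 CPM in S8 and S9, inside the 9.48 to 12.04 CPM of A549 MSTRG.2513.6 KO and below the 30.8 to 37.2 CPM of A549 WT B, while S11 had 149 CPM. LIN28B had 3.75 and 4.56 CPM in these libraries, in the range of 3.19 to 5.42 CPM of A549 MSTRG.2513.6 KO, and at most 0.516 CPM in the 13 other libraries labelled HCT116.

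With all 3 libraries, 1 of 33 hosts was called against HCT116 WT B, beside 0.933% of all genes (0.660% higher and 0.273% lower). This was MIR4453HG, with 0.0848, 0.239 and 0.165 CPM in S8, S9 and S11 and 4.18, 3.93 and 2.03 CPM in WT B (log2 fold change -4.16 ± 0.54, edgeR adjusted p = 0.082). The call was lost without a filter on low counts and without any of S8, S9, S12, S13 or S14. The row of the MIR4453 hairpin went the other way, with 2.25, 2.58 and 4.68 CPM in the KO and 0.973, 1.17 and 3.69 CPM in WT B. Added together, host and hairpin rows gave 2.33, 2.82 and 4.84 CPM against 5.15, 5.10 and 5.72 CPM, and the log2 fold change of the sum was -0.53 ± 0.257 (edgeR adjusted p = 0.311). No host was called on the sums, beside 0.918% of all genes.

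Leaving out S8 and S9 leaves S11 alone against WT B, with its spread taken to be that of the wild type. Then 8 of 34 hosts were called, 7 lower and 1 higher, beside 8.69% of all genes. Lower were MIR17HG, host of the growth-promoting miR-17-92 cluster, with 8.56 CPM in S11 against 17.5 to 20.3 CPM (log2 fold change -1.24), MIR22HG with 0.715 against 3.11 to 4.30 CPM (-2.47), MIR924HG with 4.98 against 9.28 to 10.6 CPM (-1.11), MIR200CHG (-1.27), MIR2052HG (-1.73), MIR497HG (-1.88) and MIR4453HG (-4.42). MIR3659HG was higher by 1.45. A single library gives no replicate check of these differences. S8 and S9 alone gave 23 calls among 37 hosts tested against WT B, beside 37.2% of all genes.

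**Figure D4:**
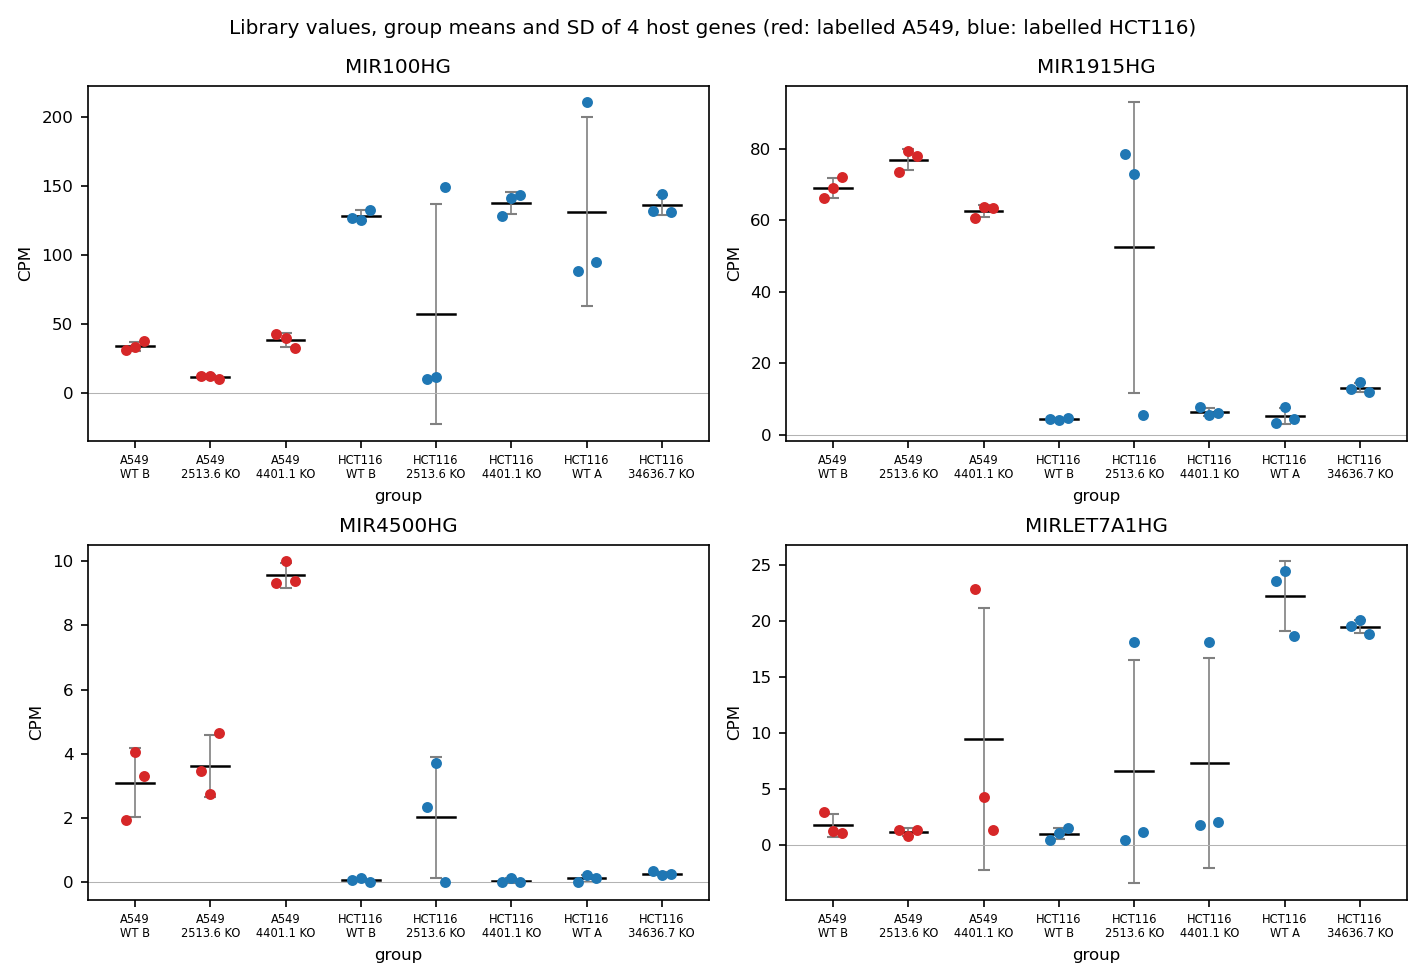
CPM of MIR100HG, MIR1915HG, MIR4500HG and MIRLET7A1HG in each library by group, with the group mean as a black line and the SD as a grey bar, in red for libraries labelled A549 and blue for those labelled HCT116. MIR100HG is low in the 3 A549 MSTRG.2513.6 KO libraries and in 2 libraries of HCT116 MSTRG.2513.6 KO, and MIRLET7A1HG is high in single libraries of 3 KO groups and in all libraries numbered 1A to 3A.

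In HCT116 MSTRG.34636.7 KO, 2 of 34 hosts tested were called against WT A, 1 higher and 1 lower, beside 1.34% of all genes (0.729% higher and 0.607% lower). MIR1915HG was higher, with 12.8, 14.6 and 11.9 CPM in the KO and 3.23, 7.64 and 4.40 CPM in WT A and no overlap between the groups (log2 fold change 1.37 ± 0.289, edgeR adjusted p = 0.0858). Between these groups 10 of 34 hosts tested and 23.4% of all genes tested had no overlap. Against WT B, at 4.19 to 4.51 CPM, MIR1915HG was called as well, but the call was lost in 6 of 13 alternatives. These were the fits without any of the KO libraries 1A, 2A or 3A or WT A library 3A, where the edgeR adjusted p was between 0.150 and 0.330, upper-quartile normalization (edgeR adjusted p = 0.111) and the replicate block (edgeR adjusted p = 0.101). MIR4527HG was lower at the edge of detection, with 0, 1 and 0 counts in the KO and 9, 14 and 29 counts in WT A (edgeR adjusted p = 0.0605). The call of MIR4527HG was lost in 5 of 10 alternatives, without any of the KO libraries or WT A library 3A and with the replicate block, where the edgeR adjusted p was between 0.120 and 0.281. Outside these 10, it was also not called by DESeq2, with at least 10 counts required in each library or with WT B as control. No gene of the lists of processing, Argonaute, turnover, intronic or regulator genes was called in this KO.

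The 2 sets of HCT116 wild-type libraries also differed in hosts. Between WT A and WT B 3 of 32 hosts tested were called, all higher in WT A, beside 7.06% of all genes (3.16% higher and 3.90% lower). MIRLET7A1HG had 23.6, 24.4 and 18.7 CPM in WT A and 0.515, 1.08 and 1.56 CPM in WT B, a log2 fold change of 4.37 ± 0.377 (edgeR adjusted p = 0.000243). MIRLET7BHG had 3.14, 6.27 and 2.85 CPM against 0.439, 0.358 and 0.466 CPM, and MIR193BHG 9.31, 9.96 and 7.54 CPM against 0, 0.997 and 0.549 CPM. The call of MIR193BHG was lost without S14 (edgeR adjusted p = 0.101). Since all WT A libraries carry numbers 1A to 3A and all WT B libraries S numbers, what separates the sets besides the numbers cannot be told apart. Of the gene lists, AGO1 and E2F3 were lower and TUT4, a terminal uridylyl transferase that acts with LIN28A on let-7 precursors, was higher in WT A.

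MIRLET7A1HG was also uneven within the libraries with S numbers. Over these 18 libraries its median was 1.38 CPM, but S23, S9 and S15 had 22.8, 18.1 and 18.1 CPM, beside 18.7 to 24.4 CPM in the 6 libraries numbered 1A to 3A. S23 lay inside that range, and S9 and S15 just below it. These 3 libraries belong to 3 different KO groups, and no other library with an S number exceeded 4.30 CPM. It overlaps LINC02603 on the opposite strand.

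Rows of hairpin genes showed a pattern that runs through several hosts. The tables list 89 microRNA genes that GENCODE places within a host on its strand, in 56 hosts, and 14 of these rows exceeded 1 CPM in at least 1 library. How reads were divided between a hairpin row and the host row around it is not given in the sources used here, and the part of that step in the values below was not tested. Which of the rows had counts depended on the library series. MIR222 had 96.5 to 422 CPM in the 18 libraries with S numbers and at most 0.0204 CPM in the 6 numbered 1A to 3A. MIR31 was the reverse, with at most 0.109 CPM against 172 to 434 CPM.

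The hairpin rows could outweigh the host rows. In HCT116 WT B the host row MIR222HG held 49.7 ± 1.97 CPM and its nested rows 337 ± 20.4 CPM, or 87.1% of the sum, while in WT A the host row held 32.6 ± 10.1 CPM and the nested rows 0.0326 ± 0.0114 CPM. For MIR31HG the WT A libraries had 0.808, 4.79 and 0 CPM on the host row and 312, 434 and 172 CPM on MIR31. MIR181A1 had 25.2 to 165 CPM in WT A and at most 0.0333 CPM in WT B. MIR365A, within MIR193BHG, had 2.14 to 3.39 CPM in WT B and 0.0685 to 0.132 CPM in WT A. BLID and MIR125B1, both inside MIR100HG, also traded places: BLID had 0.548 to 17.02 CPM in libraries with S numbers and at most 0.122 CPM in the others, and MIR125B1 at most 0.193 CPM and 5.10 to 14.6 CPM.

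With each host row summed with its nested rows and the fit repeated, a choice made after the rows were seen, 7 of 33 hosts were called between WT A and WT B, beside 7.05% of all genes. MIR31HG went from -3.72 ± 1.21 (edgeR adjusted p = 0.114) on the host row to 3.71 ± 0.306 (edgeR adjusted p = 0.000195) on the sum, a turn in direction. MIR181A1HG went from -0.32 ± 0.851 to 4.16 ± 0.604 and MIR222HG from -0.63 ± 0.202 to -3.59 ± 0.223, both called on the sum. MIR193BHG went from 4.06 ± 0.867 to 1.15 ± 0.182, called on both. MIRLET7A1HG and MIRLET7BHG stayed at 4.32 ± 0.357 and 2.94 ± 0.337. MIR663AHG was the seventh, at -4.46 ± 1.15.

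Within the libraries with S numbers the sums changed less. Between the wild-type cell lines 18 hosts were called on the sums, all among the 19 called on host rows, and MIR222HG stood at -1.37 ± 0.0862 and MIR193BHG at 3.88 ± 0.113. In A549 MSTRG.2513.6 KO and A549 MSTRG.4401.1 KO the same hosts were called as on the host rows alone. MIR4453HG was an exception, with low host counts and high hairpin counts in the same libraries: S19, of A549 MSTRG.2513.6 KO, had 0 CPM on the host row and 2.89 CPM on MIR4453, while S17 and S18 of that group had 2.58 and 2.60 CPM on the host row and 0.344 and 0.279 CPM on MIR4453. The sums of the 3 libraries were 2.93, 2.88 and 2.89 CPM.

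**Figure D5:**
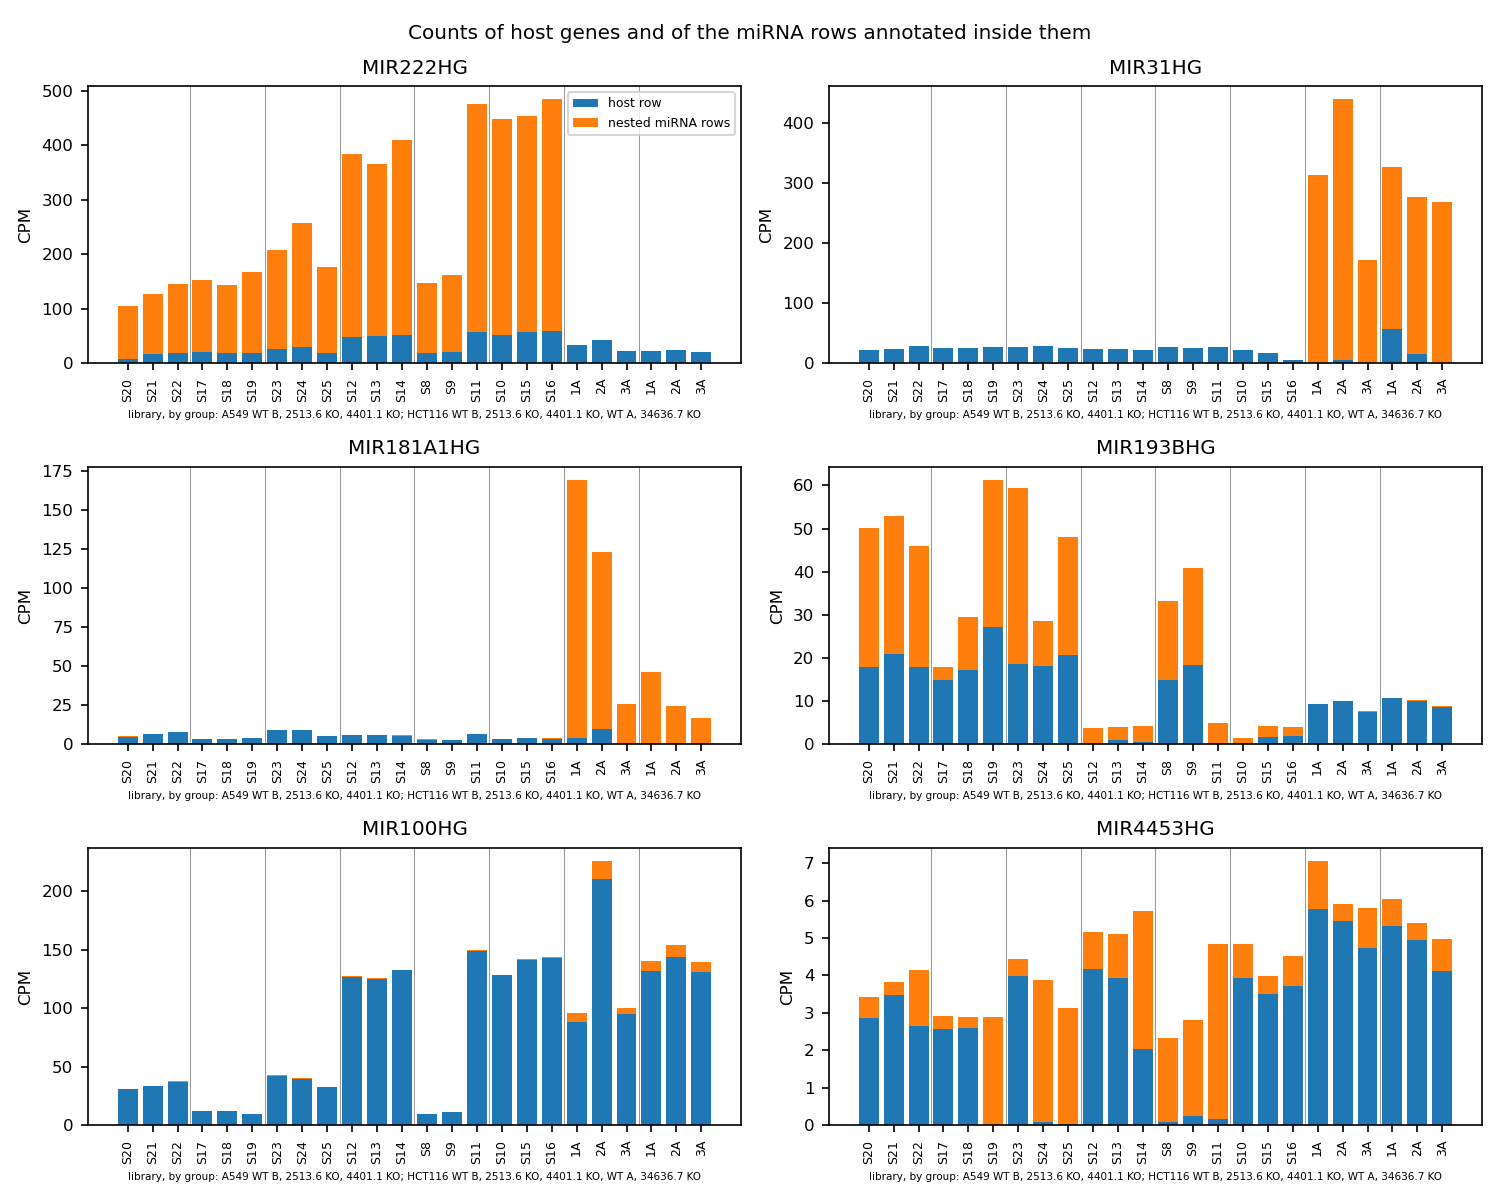
CPM of 6 host rows (blue) and of the microRNA rows annotated inside them (orange), stacked for each of the 24 libraries in the order of the groups named under each panel. The orange part is most of the bar for MIR222HG in libraries with S numbers and for MIR31HG and MIR181A1HG in libraries numbered 1A to 3A, and for MIR4453HG it replaces the blue part in single libraries such as S19, S24, S25 and S11.

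At least 1 of the 5 KO comparisons called 9 of the 38 hosts tested in any of them, beside 16.4% of all genes. With S8 and S9 left out of HCT116 MSTRG.2513.6 KO these were 15 of 38 hosts, beside 20.96% of all genes. The KO comparisons of a cell line share their WT B libraries, except MSTRG.34636.7 KO, set against WT A. Of the 8 hosts with the highest mean CPM, MIR100HG and MIR1915HG were called in a KO, the call of MIR17HG in the MSTRG.2513.6 KO of HCT116 came only without S8 and S9, and MIR29B2CHG, MIR222HG, MIR34AHG, MIR31HG and MIR600HG were called in none with or without these libraries. MIR600HG ran from 8.70 to 26.2 CPM over all 24 libraries, and MIR17HG from 7.03 to 20.3 CPM. Both were steadier than the host row of MIR31HG, which ran from 0 to 56.6 CPM. Within HCT116 MSTRG.34636.7 KO alone that row had 56.6, 14.95 and 0.384 CPM. With the nested MIR31 row added, the same KO libraries had 327, 277 and 269 CPM.

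By role, the growth-associated hosts (7 tested, with MIR17HG, MIR222HG and MIR503HG) and the hosts induced by stress (3 tested, MIR34AHG, MIR210HG and MIR22HG) had 0 calls in each of the 5 KO comparisons by edgeR's quasi-likelihood test, and so had the epithelial and differentiation hosts (5 tested). These counts include S8 and S9. Without them, the hosts of these lists called in HCT116 MSTRG.2513.6 KO rest on S11 alone. They were MIR17HG (growth-associated, log2 fold change -1.24), MIR22HG (stress-induced, -2.47), and MIR200CHG (-1.27) and MIR497HG (-1.88) of the epithelial and differentiation hosts. In that fit the medians were -1.05 for the stress-induced and -0.53 for the epithelial and differentiation hosts, beside 0.01 over all genes. Median log2 fold changes of the growth-associated hosts were 0.07 and 0.21 in the A549 MSTRG.2513.6 and MSTRG.4401.1 KOs, and -0.54, -0.24 and -0.53 in the KOs of HCT116 (in the order MSTRG.2513.6, MSTRG.4401.1, MSTRG.34636.7), beside -0.03, 0.12, -0.02, 0.00 and -0.02 over all genes. Without S8 and S9 the median of the growth-associated hosts in HCT116 MSTRG.2513.6 KO was 0.10, beside 0.01 over all genes. The let-7 and miR-100 hosts (4 tested in A549) had a median of -0.49 in A549 MSTRG.2513.6 KO, with 1 host lower, beside 1.79% of all genes lower. In A549 MSTRG.4401.1 KO their median was 0.86, with 2 hosts higher, beside 11.1% of all genes higher.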

How the data were processed

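Total RNA of 24 libraries was depleted of rRNA, prepared with a directional kit and sequenced on a NovaSeq. The authors trimmed reads with Trim Galore 0.6.6, checked them with FastQC 0.11.9, aligned them to hg38 with HISAT2 2.2.1 and deposited whole-number read counts per gene symbol, not normalized, for each library. The strand setting of the counting is not given in the sources used here, so values of the 22 hosts with exons opposite to exons of another gene are uncertain.

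Here CPM were counts over each library's total. Counts were fitted per comparison with edgeR 4.0.16 (R 4.3.3; TMM, filterByExpr, glmQLFit and glmQLFTest) over all genes, with Benjamini-Hochberg adjustment, on the 6 libraries compared, and on 12 libraries with an interaction term for the MSTRG.4401.1 KO in both lines. With 3 libraries per group an exact permutation test cannot go below p = 0.1, so none was used. Alternatives were DESeq2 1.42.0, a fit without the filter, upper-quartile normalization, at least 10 counts required in each library, each library left out, the other wild-type set as control, a replicate block, S8 and S9 left out and, chosen after seeing the data, host rows summed with nested microRNA rows. The test was checked on simulated data.

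The hosts, gene lists and tests were chosen with earlier results of these data known. Named were the 8 hosts with the highest mean CPM, every host called between 2 groups, and genes of the lists called in a KO. Hosts under the fold-change threshold, hosts named for the interaction only, list genes of other comparisons, DICER1, BLID, PDP1 and the microRNA rows were named after their values were seen. Host symbols with a hyphen (7) fall outside the rule, and 3 symbols listed only in libraries 1A to 3A were left out. Sequences are from RefSeq (GRCh38.p14), spans from GENCODE.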

Additional observations from a re-analysis of the deposited data

Results flagged for a closer look

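The effect of MSTRG.4401.1 KO differed between A549 and HCT116 for 5 hosts by the test of the interaction. The difference, A549 minus HCT116 on the log2 scale, was 1.23 for MIR210HG, 1.32 for MIR3150BHG, 1.91 for MIR3936HG, -5.58 for MIR378D2HG and -2.45 for MIR4713HG. It called 11.4% of all genes as well. The values of MIR378D2HG and MIR4713HG rest on A549 libraries with at most 6 and 11 counts, and MIR378D2HG was at 0 in all 3 A549 KO libraries, so their sizes depend on the prior count of the fit. MIR3936HG kept its call in 17 of 17 alternatives, MIR210HG in 16 of 17 and MIR3150BHG in 15 of 17. In A549 the KO libraries also had a higher mitochondrial share of counts than WT B, and its part in these differences was not tested.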

How the results depend on the processing

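Counts of hosts called are given here, with the reported count first. Except for HCT116 MSTRG.2513.6 KO, calls over all genes are not given for each alternative. A rise or fall in host calls can therefore not be told apart from one over all genes. For A549 MSTRG.2513.6 KO (1), leaving out a library gave 1 to 2, with 2 without S20. For A549 MSTRG.4401.1 KO (5), DESeq2 gave 2, no filter 2, upper-quartile normalization 9, and leaving out a library 2 (without S21) to 6 (without S25). For HCT116 MSTRG.2513.6 KO (1), DESeq2 gave 6, no filter 0, a requirement of at least 10 counts per library 3, host plus microRNA rows 0, leaving out S8 and S9 8, and leaving out a single library 0 to 23, with 0 without S8, S9, S12, S13 or S14 and 23 without S11. Over all genes this comparison had 246 calls by edgeR, 2785 by DESeq2, 6 without a filter and 975 with the minimum of 10. For HCT116 MSTRG.4401.1 KO (0), DESeq2, no filter and the minimum of 10 counts gave 1 each, WT A as control 4, and leaving out a library 0 to 2. For MSTRG.34636.7 KO (2), DESeq2, upper-quartile normalization and the minimum of 10 counts gave 1 each, WT B as control 11, and leaving out a library 0 to 2. A control from the other wild-type set also crosses the library series. Between WT A and WT B themselves 7.06% of all genes were called. For WT A against WT B (3), DESeq2 gave 5, host plus microRNA rows 7, and leaving out a library 2 to 6. For A549 against HCT116 WT B (19), the minimum of 10 counts, which tests fewer hosts, gave 7, and leaving out a library 19 to 22. For the interaction (5), the minimum of 10 counts gave 3, and leaving out a library 2 (without S25) to 6 (without S23). No result turned its direction among those called, and for the other changes the cause was not tested.

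With a replicate block on the library number, MSTRG.34636.7 KO had 0 calls and WT A against WT B 6, and A549 against HCT116 WT B had 20. Same-numbered libraries of MSTRG.34636.7 KO and WT A had deviations from their group means that correlated by 0.0115, 0.0354 and 0.0849, so that the numbers were not taken to pair the libraries, although each of the 3 KO libraries correlated best with its own number, while WT A library 1A correlated best with KO library 2A.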
